A study of Homo sapiens with 6 samples.

Results

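The 51 genes described here encode Wnt ligands, the enzyme and carrier that make and secrete them, their receptors, secreted inhibitors, regulators of receptor turnover, cytoplasmic transducers and nuclear factors. They were taken by symbol from a fixed list of names, out of 48183 gene names in the table, and the counts of identifiers that share a name were summed. Their RNA was measured by bulk RNA-seq in human embryonic stem cells (ESCs) in the naive state, which resembles the cells of the early embryo before implantation, and in the primed state, the usual form of human ESCs. There were 4 naive libraries and 2 primed libraries. Of the naive libraries, 2 came from cells induced with AICAR, an activator of the kinase AMPK (AICAR 1 and AICAR 2), 1 from cells induced with valproic acid (VPA), a histone deacetylase inhibitor, and 1 from cells in which doxycycline (DOX) switched on CA-p38, a constitutively active form of the kinase p38. The AICAR and VPA cells were derived from a line carrying the EOS-GFP reporter, and the CA-p38 cells from the same reporter line carrying in addition the inducible CA-p38 transgene. The primed libraries, labelled untreated, came from these 2 parental lines (primed EOS and primed CA-p38). The labels name the parental ESC line H1, whereas the text of the study names H9.

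Per the labels, the naive cells had been recultured after conversion in PXGL medium, which contains the MEK inhibitor PD0325901, XAV939, Go6983 and LIF, with mouse embryonic fibroblast feeders, and had been sorted for CD75 and SUSD2. The medium used to induce the VPA cells had no XAV939, and the text of the study also describes feeder-free PXGL for CA-p38 cells. The primed cells had been grown without feeders in StemFit AK02N on Matrigel. XAV939 inhibits the tankyrases, the enzymes that mark axin for degradation, and so acts within the Wnt pathway itself. Because the naive and not the primed cells had been grown with XAV939, the effects of the state, the medium, the feeders and the sort on Wnt gene expression cannot be told apart. With 1 library for CA-p38 and 1 for VPA, the agent cannot be told apart from the single culture, and the labels do not say whether the AICAR libraries were separate inductions, so the p-values measure the spread between these libraries.

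In the canonical Wnt pathway, a secreted ligand binds a Frizzled (FZD) receptor together with LRP5 or LRP6, and this stops a complex of axin, APC and GSK3 from marking beta-catenin for degradation. Beta-catenin then enters the nucleus and switches genes on together with the TCF and LEF factors, among them genes such as AXIN2, ZNRF3 and NOTUM that dampen the signal again. In human pluripotent cells, inhibition of this pathway helps to hold the naive state in culture, whereas its activation in primed cells starts differentiation toward mesoderm and endoderm.

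Total counts ran from 46823699 to 54277064 per library, so that 3 counts, taken as the floor of detection, corresponded to 0.0553 to 0.0641 CPM (counts scaled to library size). The state labels were checked against marker genes. Summed over 7 naive markers the level was 3829 to 4597 CPM in naive and 8.18 to 11.3 CPM in primed libraries, and over 6 primed markers it was 41.0 to 53.4 CPM against 2346 to 2735 CPM. The naive markers include SUSD2, at 428 to 669 CPM in naive libraries, on which the naive cells had been sorted. They also include KLF17, which had at most 3 counts in a primed library. Of 10 fibroblast markers, a check for feeder cells, 9 were above the floor in naive and in primed libraries, and their sum was 46.5 to 85.2 CPM in naive and 198 to 218 CPM in primed libraries, which had no feeders. FAP was at or under the floor in all of them. In the test described below, TWIST2 was called higher in naive cells and COL1A1, COL1A2, POSTN and PDGFRB lower. POSTN and PDGFRB passed the filter on low counts only through the primed group, and the other fibroblast markers tested were not called. The feeders were mouse cells and the reads were mapped to human sequences, so this check for feeders is limited. The AICAR libraries differed from each other by more than sampling noise (chi-square of 21.8 per gene, against 20.5 to 37.9 for other pairs of naive libraries). They were counted as 2 replicates, although this difference does not show that they were separate inductions. A figure legend of the study lists the AICAR cells at consecutive passage numbers.

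Of the 51 genes, 48 had enough counts to be tested. The quasi-likelihood test of edgeR, with adjusted p-values (Benjamini-Hochberg) taken over the 26497 genes that could be tested, called 39 of them at 0.05, of which 19 were higher and 20 lower in naive cells. Over all genes tested the share was 53.1%, with 26% higher and 27% lower. The median absolute log2 fold change was 1.57 over the Wnt genes tested and 0.85 over all genes tested. All 4 naive libraries lay above both primed libraries for 21 of the 51 genes and below both for another 21, where 64.9% of all genes tested had groups that did not overlap. Among those tested, WNT6, WNT10B, WNT11, TNIK and LEF1 passed the filter on low counts only through the group in which they were high. DKK1, DKK4 and LGR5 were not tested.

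**Figure D1:**
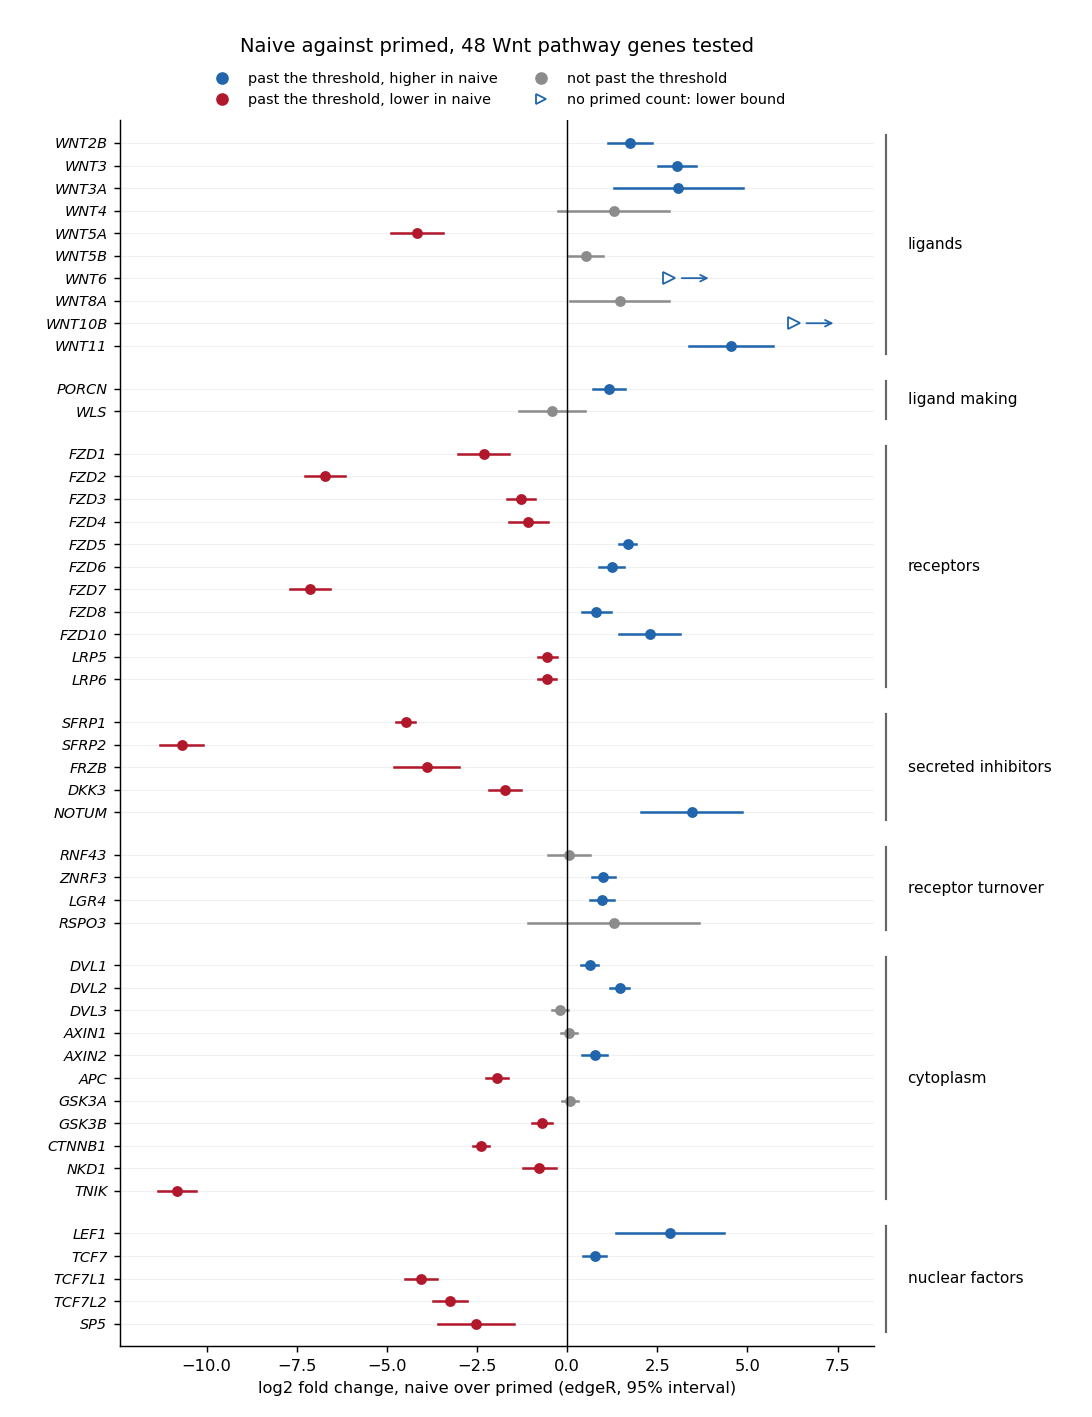
Log2 fold change of naive over primed libraries for the 48 Wnt pathway genes tested, ordered by role, with 95% intervals from edgeR. Blue and red points passed the adjusted threshold, 19 higher and 20 lower in naive cells, and open triangles mark WNT6 and WNT10B, which had no count in either primed library and are drawn at their lower bounds.

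The direction was not shared within most roles. Over all genes tested, 26% were higher and 27% lower. Of the genes counted below, WNT6, WNT10B, WNT11 and LEF1 passed the filter only through the naive group, and TNIK only through the primed group. Among 10 ligands, 6 were higher and 1 lower in naive cells. Among 11 receptors and co-receptors, 4 were higher and 7 lower. Secreted inhibitors gave 1 higher and 4 lower of 7, regulators of receptor turnover 2 higher of 5, cytoplasmic genes 3 higher and 5 lower of 11, and nuclear factors 2 higher and 3 lower of 5.

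**Figure D2:**
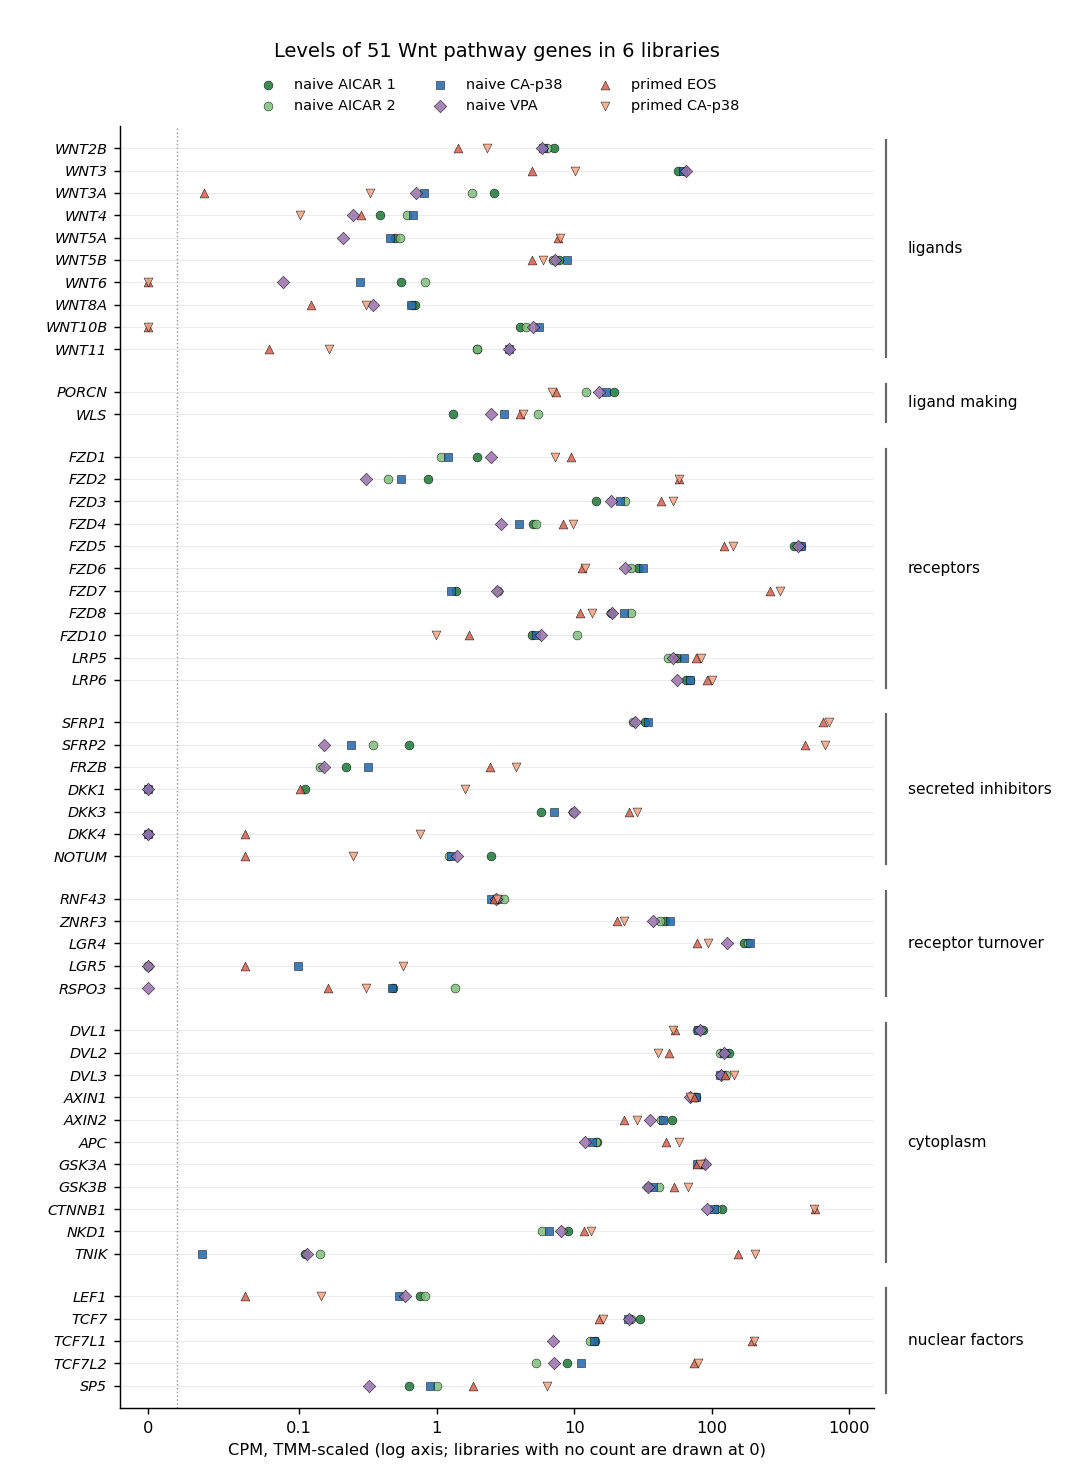
TMM-scaled CPM of the 51 genes in each of 6 libraries on a log axis, ordered by role, with naive libraries as circles, squares and diamonds and primed libraries as triangles. FZD7, SFRP2 and TNIK lie far to the right in primed libraries, while WNT3 and WNT10B lie to the right in naive libraries.

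Among the ligands, naive cells carried more WNT3 and less WNT5A. WNT3, a ligand of the canonical pathway (chromosome 17 from 46762506 to 46833154), had 56.5, 63.7, 61.7 and 65.0 CPM in AICAR 1, AICAR 2, CA-p38 and VPA, against 4.93 and 10.1 CPM in primed EOS and primed CA-p38. The naive libraries were close together and all far above the primed ones. The log2 fold change was 3.03 (SE 0.24, adjusted p = 3.21e-07), an 8.19-fold difference. The gene is listed under 3 identifiers with nearly equal counts, and when primed CA-p38 was left out its log2 fold change was 3.65. WNT3 belongs to a set of naive and primed genes that the study displayed for these libraries, so its direction is not independent evidence.

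WNT5A, which acts mostly through pathways that do not use beta-catenin (chromosome 3 from 55465715 to 55490539), showed the opposite pattern. Its level was 0.497, 0.544, 0.455 and 0.210 CPM in AICAR 1, AICAR 2, CA-p38 and VPA, and 7.58 and 7.83 CPM in primed EOS and primed CA-p38. It was 18.0-fold lower in naive cells (log2 fold change -4.17, SE 0.33, adjusted p = 3.23e-07).

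WNT10B and WNT6, both ligands of the canonical pathway, had no count in either primed library. WNT10B had 4.03, 4.45, 5.54 and 5.04 CPM in AICAR 1, AICAR 2, CA-p38 and VPA. Against a floor of 3 counts per primed library, its naive mean was at least 78.2-fold higher (adjusted p = 1.03e-07). WNT6 was scarcer and more uneven, from 0.0764 CPM in VPA to 0.826 CPM in AICAR 2, and its naive mean was at least 7.10-fold higher (adjusted p = 0.00387).

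WNT11, a ligand known for guiding cell movement, had 1.95, 1.97, 3.36 and 3.36 CPM in AICAR 1, AICAR 2, CA-p38 and VPA, and 0.0606 and 0.164 CPM in primed EOS and primed CA-p38. The log2 fold change was 4.54 (SE 0.54, adjusted p = 1.23e-05), and 5.41 when primed CA-p38 was left out. WNT2B was higher by 1.75 on the log2 scale (adjusted p = 1.641e-04), with 5.85 to 7.12 CPM in naive and 1.43 to 2.31 CPM in primed libraries. WNT3A, used in many laboratories as the standard activating ligand, ranged from 0.707 CPM in VPA to 2.61 CPM in AICAR 1, with 0.0202 and 0.327 CPM in primed EOS and primed CA-p38. Its log2 fold change of 3.08 (adjusted p = 0.00706) depended on which primed library was kept, since it was 2.16 without primed EOS, no longer past the threshold (adjusted p = 0.0525), and 6.05 when primed CA-p38 was left out.

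The remaining ligands did not pass the threshold. WNT5B had 6.99 to 8.83 CPM in naive and 4.89 to 5.89 CPM in primed cells (log2 fold change 0.51, adjusted p = 0.0607). WNT8A (1.45, adjusted p = 0.0703) and WNT4 (1.30, adjusted p = 0.143) were below 1 CPM in every library. WNT5B and WNT8A nevertheless lay higher in all 4 naive libraries than in both primed ones.

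The enzyme that makes Wnt ligands active was higher in naive cells, and their carrier was not called. PORCN, which attaches the lipid that ligands need for secretion, had 19.4, 12.1, 17.1 and 15.04 CPM in AICAR 1, AICAR 2, CA-p38 and VPA, against 7.38 and 6.85 CPM in primed EOS and primed CA-p38. It was 2.24-fold higher (log2 fold change 1.16, SE 0.21, adjusted p = 4.316e-04). WLS, which carries the lipid-bearing ligands to the cell surface, overlapped between the groups, with 1.31 to 5.44 CPM in naive and 4.06 to 4.21 CPM in primed cells (log2 fold change -0.43, 95% interval -1.34 to 0.49, adjusted p = 0.416).

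The Frizzled receptors exchanged places between the states, with FZD5 leading in naive and FZD7 in primed cells. FZD7 (chromosome 2 from 202033855 to 202038441), a receptor known to be abundant in human ESCs, had 1.38, 2.78, 1.27 and 2.75 CPM in AICAR 1, AICAR 2, CA-p38 and VPA. In the primed libraries it had 263 CPM (EOS) and 313 CPM (CA-p38), more than in any naive library. The fall was 141-fold (log2 fold change -7.14, SE 0.26, adjusted p = 2.40e-10).

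FZD2, another receptor for canonical and non-canonical ligands (chromosome 17 from 44557484 to 44561262), had 0.865, 0.443, 0.554 and 0.306 CPM in AICAR 1, AICAR 2, CA-p38 and VPA, against 57.8 and 57.3 CPM in primed EOS and primed CA-p38. It was 105-fold lower in naive cells (log2 fold change -6.72, SE 0.25, adjusted p = 3.91e-10). FZD1 had 1.95, 1.07, 1.21 and 2.48 CPM in the same order of naive libraries and 9.52 and 7.22 CPM in the primed ones, with a log2 fold change of -2.32 (SE 0.33, adjusted p = 5.64e-05). Both receptors were thus lower in every naive library.

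FZD5 (chromosome 2 from 207762598 to 207769906) was the most abundant receptor of this group in naive cells, also per length, with 396, 448, 441 and 420 CPM in AICAR 1, AICAR 2, CA-p38 and VPA. Primed EOS had 123 CPM and primed CA-p38 143 CPM. The naive level was 3.20-fold higher (log2 fold change 1.68, SE 0.11, adjusted p = 4.58e-08). A further 3 receptors rose with it. FZD10 had 4.91 to 10.4 CPM in naive and 0.981 to 1.72 CPM in primed libraries (log2 fold change 2.28, adjusted p = 2.671e-04). FZD6 had 23.5 to 31.4 CPM against 11.3 to 11.98 CPM (log2 fold change 1.23, adjusted p = 3.19e-05), and FZD8 had 18.5 to 25.95 CPM against 11.1 to 13.5 CPM (log2 fold change 0.81, adjusted p = 0.00228).

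FZD3 and FZD4 went the way of FZD7, with smaller differences. FZD3, known for its part in the wiring of the nervous system, had 14.5 to 23.5 CPM in naive and 42.4 to 52.5 CPM in primed libraries (log2 fold change -1.29, adjusted p = 4.41e-05). FZD4, the receptor for the ligand Norrin in the retina, had 2.94 to 5.32 CPM against 8.33 to 9.75 CPM (log2 fold change -1.07, adjusted p = 0.00325). For each of the 9 receptors the naive and primed libraries did not overlap, beside 64.9% of all genes tested.

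The co-receptors LRP5 and LRP6, which carry the signal of canonical ligands, had smaller fitted changes than any of the Frizzled receptors, although these differences between genes were not tested. LRP5 had 48.4 to 62.3 CPM in naive and 77.3 to 83.0 CPM in primed cells (log2 fold change -0.55, adjusted p = 0.00189). LRP6, listed under 2 identifiers with nearly equal counts, had 64.8 ± 6.52 CPM (SD, n = 4) and 95.9 ± 5.74 CPM (SD, n = 2), with a log2 fold change of -0.57 (adjusted p = 0.00127).

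Dividing by the length of the longest transcript allowed the receptors to be set against one another. Among the 9 FZD genes of the list, FZD5 made up 77.6% ± 1.28 (SD, n = 4) of the summed CPM per kb in naive libraries, followed by FZD6 with 9.43% ± 1.30 and FZD8 with 6.80% ± 0.68. FZD7 made up 0.57% ± 0.23 there. In primed libraries FZD7 made up 57.3% ± 1.53 (SD, n = 2), FZD5 17.3% ± 0.25 and FZD2 14.0% ± 1.43. The next in line, FZD3 with 3.14% ± 0.17, FZD6 with 2.86% ± 0.16 and FZD8 with 2.77% ± 0.12, lay close together, and FZD6 and FZD8 did not differ beyond their spread. The summed level of the 9 genes was 78.1 ± 5.05 CPM per kb in naive and 109 ± 10.5 CPM per kb in primed libraries.

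**Figure D3:**
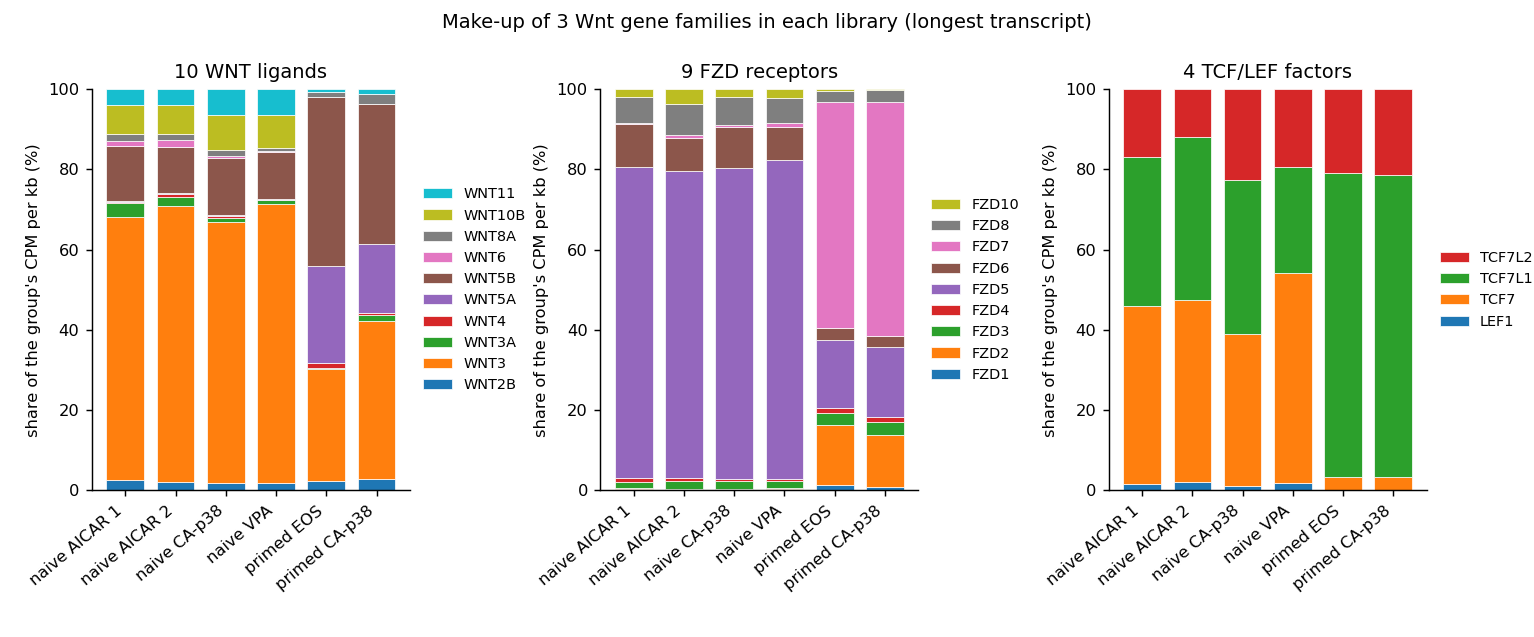
Share of each gene in the summed CPM per kb of the 10 WNT, 9 FZD and 4 TCF/LEF genes of the list, in each of 6 libraries. For WNT and FZD the largest parts are close in the 4 naive bars and differ from the 2 primed bars, with FZD5 giving way to FZD7. The naive TCF/LEF bars vary more, with TCF7 at 37.7% to 52.4% and TCF7L1 at 26.4% to 40.7%. TCF7L1 has a larger part in both primed bars. The naive share of TCF7L2 (12.0% to 22.5%) spans its primed values (21.0% and 21.4%).

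On the same scale WNT3 made up 67.2% ± 2.32 of the 10 listed ligands in naive and 33.7% ± 8.31 in primed libraries, where WNT5B with 38.5% ± 4.97 and WNT5A with 20.7% ± 4.87 were the other large parts. WNT3 and WNT5B did not differ beyond their spread in primed libraries. The summed level was 25.3 to 27.9 CPM per kb in naive and 5.20 to 7.51 CPM per kb in primed libraries. WNT9A, a ligand outside the list, had 32.0 to 49.0 CPM in naive and 0.675 to 1.09 CPM in primed libraries, so these shares hold for the 10 listed ligands alone.

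The listed inhibitors that bind the ligands, SFRP1, SFRP2 and FRZB, were lower in naive cells. Outside the list, SFRP5 was not called (-0.90, adjusted p = 0.249). Over the 5 listed inhibitors tested the median absolute log2 fold change was 3.89, above that of each other role. SFRP2 (chromosome 4 from 153780591 to 153789083), which binds Wnt ligands outside the cell, had 0.626, 0.342, 0.238 and 0.153 CPM in AICAR 1, AICAR 2, CA-p38 and VPA, against 476 and 664 CPM in primed EOS and primed CA-p38. The log2 fold change was -10.69 (SE 0.27, adjusted p = 2.08e-11). SFRP2 is another gene of the study's displayed set.

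SFRP1, of the same family, stayed at a moderate level in naive cells, with 32.6, 26.6, 34.3 and 27.9 CPM in AICAR 1, AICAR 2, CA-p38 and VPA, and reached 644 and 709 CPM in primed EOS and primed CA-p38. It was 22.3-fold lower in naive cells (log2 fold change -4.48, SE 0.12, adjusted p = 2.42e-11). FRZB, a further ligand-binding protein of this kind, had 0.221, 0.141, 0.317 and 0.153 CPM in naive libraries in that order and 2.45 and 3.80 CPM in primed cells (log2 fold change -3.89, SE 0.41, adjusted p = 4.52e-06). Per kb of transcript, SFRP2 and SFRP1 were the most abundant genes of the whole list in primed libraries, with 285 ± 66.6 and 152 ± 10.2 CPM per kb (SD, n = 2).

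Of the Dickkopf genes, DKK1 and DKK4, whose products block LRP5 and LRP6, were scarce. DKK3, a distant relative with an uncertain role in Wnt signaling, had 5.74 to 9.92 CPM in naive and 25.2 to 28.5 CPM in primed cells (log2 fold change -1.72, adjusted p = 1.51e-05). DKK1 had 6 counts in AICAR 1, none in the other naive libraries, 5 in primed EOS but 79 in primed CA-p38, or 1.62 CPM in that library. DKK4 had no count in naive libraries, 2 in primed EOS but 37 in primed CA-p38. Both were therefore high in a single library, and neither passed the filter.

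NOTUM, an enzyme that removes the lipid from Wnt ligands and is switched on by the pathway, moved the other way. It had 2.47, 1.23, 1.27 and 1.39 CPM in AICAR 1, AICAR 2, CA-p38 and VPA, against 0.0404 and 0.245 CPM in primed EOS and primed CA-p38. The log2 fold change was 3.46 (SE 0.64, adjusted p = 5.642e-04). Leaving out primed EOS gave 2.67 and leaving out primed CA-p38 gave 5.22, both past the threshold.

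Among the regulators of receptor turnover, ZNRF3 and LGR4 were higher in naive cells and RNF43 was not called. RNF43 and ZNRF3 are related ubiquitin ligases that remove FZD receptors from the surface, and LGR4 and LGR5 bind R-spondins, which counteract that removal. ZNRF3 had 46.0, 41.9, 49.98 and 37.3 CPM in AICAR 1, AICAR 2, CA-p38 and VPA, against 20.5 and 23.1 CPM in primed EOS and primed CA-p38, a 2.01-fold difference (log2 fold change 1.004, SE 0.15, adjusted p = 8.27e-05). RNF43 had 2.85, 3.10, 2.49 and 2.71 CPM in naive and 2.63 and 2.76 CPM in primed libraries. Its log2 fold change was 0.05 (95% interval -0.53 to 0.63, adjusted p = 0.886), and with DESeq2's scaling it was slightly below 0. These paralogs therefore differed in whether they passed the test, and the difference between them was not tested.

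LGR4, one of these R-spondin receptors, had 170, 185, 190 and 128 CPM in AICAR 1, AICAR 2, CA-p38 and VPA, and 77.9 and 94.4 CPM in primed EOS and primed CA-p38 (log2 fold change 0.96, SE 0.16, adjusted p = 1.798e-04). LGR5, a stem cell marker in the gut, had 5 counts in CA-p38 and none in the other naive libraries, with 2 counts in primed EOS but 28 in primed CA-p38. The R-spondin RSPO3 had no count in VPA and up to 1.35 CPM in AICAR 2, and its groups overlapped (log2 fold change 1.29, 95% interval -1.08 to 3.65, adjusted p = 0.342).

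In the cytoplasm, the transcript of beta-catenin was lower in naive cells. CTNNB1, its gene (chromosome 3 from 41194741 to 41260096), had 118, 107, 104 and 92.9 CPM in AICAR 1, AICAR 2, CA-p38 and VPA, against 558 and 554 CPM in primed EOS and primed CA-p38. The groups lay far apart, with a 5.27-fold difference (log2 fold change -2.40, SE 0.10, adjusted p = 1.02e-09). The RNA level says nothing of the amount of beta-catenin protein, which the pathway controls by degradation and which was not measured here.

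TNIK, a kinase that binds TCF7L2 and beta-catenin (chromosome 3 from 171058414 to 171460408), was nearly silent in naive cells. It had 6, 7, 1 and 6 counts in AICAR 1, AICAR 2, CA-p38 and VPA, or 0.0198 to 0.141 CPM, against 7645 counts in primed EOS and 10099 counts in primed CA-p38, or 154 and 207 CPM. Its log2 fold change of -10.83 (SE 0.24, adjusted p = 1.06e-11) lay beside that of SFRP2 at the low end of the list.

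The genes of the destruction complex differed among themselves. APC, its scaffold, had 14.7, 14.4, 13.5 and 12.0 CPM in AICAR 1, AICAR 2, CA-p38 and VPA, against 46.7 and 57.5 CPM in primed EOS and primed CA-p38 (log2 fold change -1.93, SE 0.14, adjusted p = 1.22e-07). GSK3B, the kinase, had 34.4 to 41.6 CPM in naive and 53.2 to 67.0 CPM in primed cells (log2 fold change -0.70, adjusted p = 6.212e-04). Neither AXIN1 (log2 fold change 0.06, 95% interval -0.17 to 0.28) nor GSK3A (0.08, 95% interval -0.15 to 0.30) passed the threshold, with adjusted p = 0.672 and adjusted p = 0.571. AXIN1 had 69.98 to 76.5 CPM in naive and 69.5 to 73.8 CPM in primed libraries, and GSK3A had 77.97 to 89.6 CPM against 78.5 to 82.7 CPM, so that both overlapped.

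The 3 Dishevelled genes, which relay the signal from the receptors, also split. DVL2 had 114 to 133 CPM in naive and 40.9 to 49.1 CPM in primed libraries (log2 fold change 1.45, adjusted p = 4.87e-07). DVL1 had 78.1 to 86.1 CPM against 51.9 to 53.9 CPM (log2 fold change 0.63, adjusted p = 2.818e-04). DVL3 overlapped, with 115 to 126 CPM in naive and 125 to 145 CPM in primed libraries (log2 fold change -0.19, adjusted p = 0.141).

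**Figure D4:**
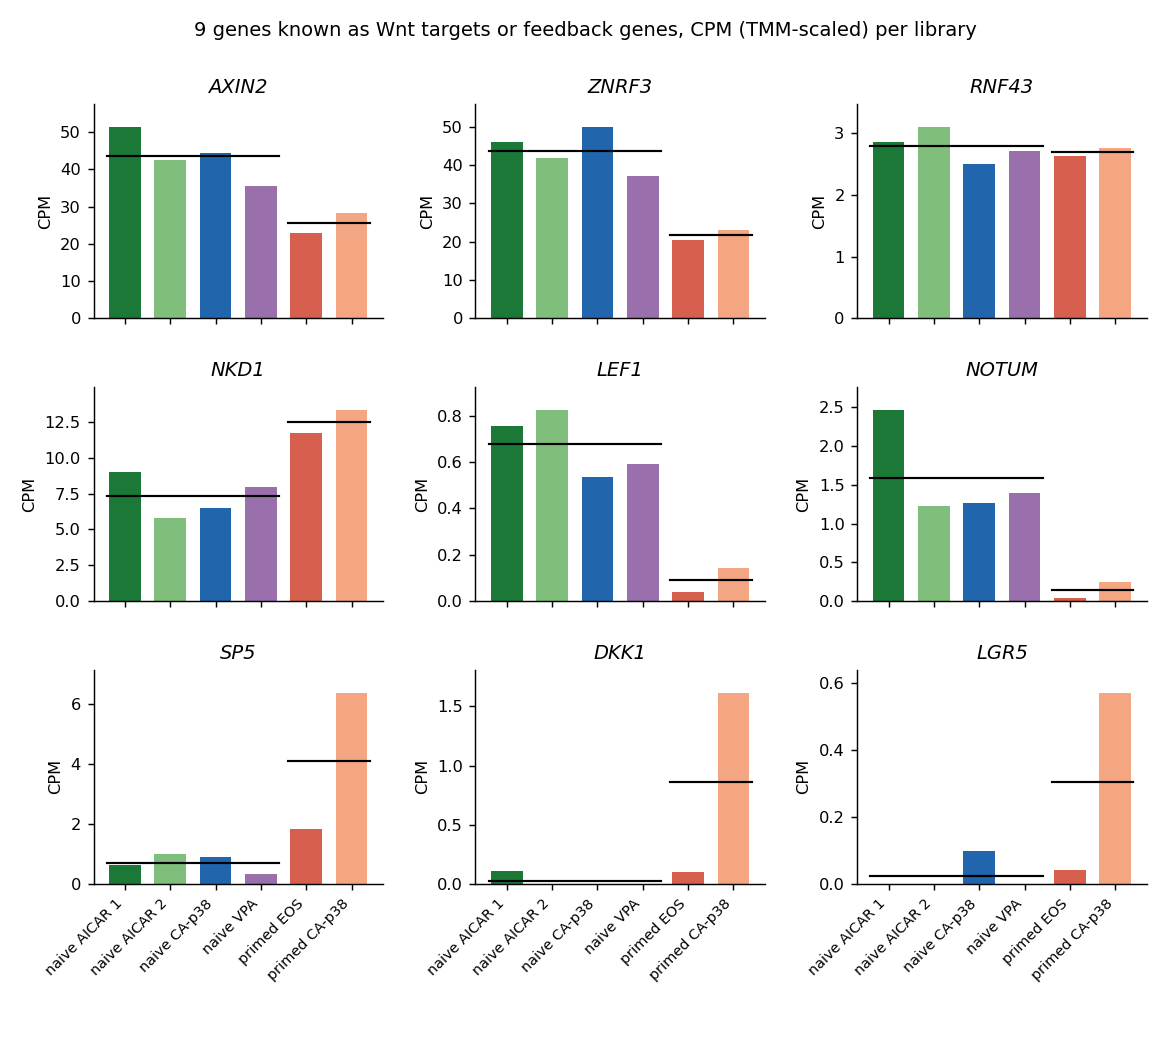
CPM in each library for 9 genes known as Wnt targets or feedback genes, with bars for single libraries, horizontal lines for group means and each axis starting at 0. AXIN2, ZNRF3, LEF1 and NOTUM are higher in all 4 naive libraries, NKD1 and SP5 are higher in both primed ones, and DKK1 and LGR5 are high in primed CA-p38 alone.

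Genes known to be switched on by canonical signaling did not share a direction. AXIN2, the most widely used target and a feedback inhibitor, had 51.4, 42.4, 44.5 and 35.6 CPM in AICAR 1, AICAR 2, CA-p38 and VPA, against 22.997 and 28.4 CPM in primed EOS and primed CA-p38. It was 1.69-fold higher in naive cells (log2 fold change 0.76, SE 0.16, adjusted p = 0.00151). NKD1, a feedback inhibitor that acts on Dishevelled, had 9.02, 5.80, 6.51 and 7.97 CPM in the same naive libraries and 11.7 and 13.3 CPM in the primed ones. Its log2 fold change of -0.77 (SE 0.21, adjusted p = 0.00792) no longer passed when primed CA-p38 was left out (-0.67, adjusted p = 0.0810).

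Of the nuclear factors, the repressor TCF7L1 was far lower in naive cells and LEF1 higher. TCF7L1 (chromosome 2 from 85133392 to 85310387), which holds Wnt targets off in pluripotent cells, had 14.2, 13.1, 14.0 and 7.05 CPM in AICAR 1, AICAR 2, CA-p38 and VPA, against 197 and 203 CPM in primed EOS and primed CA-p38. It was 16.6-fold lower (log2 fold change -4.05, SE 0.21, adjusted p = 5.23e-09). TCF7L2, which can activate or repress, had 8.82, 5.28, 11.1 and 7.07 CPM in naive and 74.5 and 79.1 CPM in primed cells (log2 fold change -3.25, SE 0.22, adjusted p = 5.53e-08). TCF7L1 and TCF7L2 are both in the study's displayed set.

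TCF7, which mostly activates, had 24.4 to 30.2 CPM in naive and 15.02 to 16.1 CPM in primed cells (log2 fold change 0.77, adjusted p = 7.547e-04). LEF1, an activator and itself a target, had 0.755, 0.826, 0.534 and 0.592 CPM in AICAR 1, AICAR 2, CA-p38 and VPA, and 0.0404 and 0.143 CPM in primed EOS and primed CA-p38. With 2 and 7 counts in the primed libraries, its log2 fold change was 2.85 (SE 0.69, adjusted p = 0.00359). It was 2.21 without primed EOS and 3.99 without primed CA-p38. Per kb, TCF7 made up 44.9% ± 6.02 of these 4 factors in naive libraries and TCF7L1 35.7% ± 6.37. These 2 shares overlapped between libraries, with TCF7 at 37.7% and TCF7L1 at 38.5% in CA-p38, and with the union of exons as length their order turned (39.9% and 40.2%). By the longest transcript, in primed libraries TCF7L1 made up 75.5% ± 0.42 and TCF7 3.28% ± 0.07. The summed level of the 4 genes was 11.2 ± 1.68 CPM per kb in naive and 88.8 ± 2.42 CPM per kb in primed libraries.

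SP5, a target whose product represses other targets, was lower in naive cells, with 0.626, 1.01, 0.891 and 0.325 CPM in AICAR 1, AICAR 2, CA-p38 and VPA. The primed libraries differed from each other, at 1.84 CPM in EOS and 6.38 CPM in CA-p38. The log2 fold change was -2.53 (SE 0.49, adjusted p = 7.52e-04). Without primed CA-p38 it was -1.36 and did not pass (adjusted p = 0.0789), and without primed EOS it was -3.17.

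The promoters of SP5 and DKK1 are shown because these targets were the genes of the list with more than 1 copy of the sequence that TCF and LEF factors recognise, taken here as CTTTG followed by A or T in each of 2 places (CTTTGAA or CTTTGAT or CTTTGTA or CTTTGTT, on either strand, copies that cannot overlap). Each window is the 250 bases before the RefSeq start of the gene on GRCh38.p14, written 5′ to 3′ on the strand of the gene, with matches in capitals. The SP5 window is chr2:170715087-170715336 on the plus strand, and the DKK1 window is chr10:52314031-52314280 on the plus strand.
SP5: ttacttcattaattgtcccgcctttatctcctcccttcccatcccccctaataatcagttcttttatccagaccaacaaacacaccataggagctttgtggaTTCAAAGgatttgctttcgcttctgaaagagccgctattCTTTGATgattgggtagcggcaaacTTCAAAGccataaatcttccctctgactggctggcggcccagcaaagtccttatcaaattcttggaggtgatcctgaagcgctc
DKK1: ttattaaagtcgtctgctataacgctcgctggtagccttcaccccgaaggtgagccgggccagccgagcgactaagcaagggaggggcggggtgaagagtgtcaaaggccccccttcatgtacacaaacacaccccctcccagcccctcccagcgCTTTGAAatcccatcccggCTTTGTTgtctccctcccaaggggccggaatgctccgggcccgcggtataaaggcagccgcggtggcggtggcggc

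The SP5 window holds 3 matches, starting 148, 109 and 84 bases before the gene, the outer ones on the opposite strand. The DKK1 window holds 2, starting 95 and 76 bases before the gene. Of 35116 windows of the same length, 12.0% hold at least 1 match, 1.21% at least 2 and 0.122% at least 3. These windows were picked for their matches. Over all 46 windows given for 35 of the 51 genes, 4 (8.70%) hold a match, and TCF7 and TCF7L2 were the other genes with a match, 1 each at an internal start. A match is a string of letters and not a measured binding site. DKK1 and SP5 were both highest in the primed CA-p38 library.

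A second list of 16 genes outside the 51 known to respond to Wnt signals in early embryos and stem cells was set beside them. Of 14 tested, 8 were higher and 5 lower in naive cells, beside 26% and 27% of all genes tested. TBXT, the mesoderm factor brachyury, had 1.64 to 2.47 CPM in naive and 0.0606 to 0.716 CPM in primed cells (log2 fold change 2.37, adjusted p = 0.00729), and its log2 fold change was 1.48 without primed EOS and 5.01 when primed CA-p38 was left out. SP8 (2.998), MSX2 (4.50), MSX1 (1.89), TBX6 (1.43) and BAMBI (0.64) were higher as well on the log2 scale, and so were CDX1 and CDX2, which had at most 6 counts in a primed library and passed the filter only through the naive group. BAMBI no longer passed without primed EOS (0.59, adjusted p = 0.0823). MIXL1 was not called (0.86, adjusted p = 0.0711), although it passed in 7 of 15 alternatives, over which its adjusted p ran from 0.00447 to 0.536. CCND1 (-3.24), MYC (-2.83), EOMES (-2.79), GBX2 (-2.33) and GAD1 (-1.63) were lower. For GAD1 the groups overlapped, with 1.59 CPM in AICAR 2 and 1.46 CPM in primed EOS. Without primed CA-p38, EOMES (-0.95, adjusted p = 0.283) and GAD1 (-0.79, adjusted p = 0.353) no longer passed. GAD1 also no longer passed with the parental line as a block (-1.45, adjusted p = 0.0547).

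In another list, of 82 further Wnt pathway genes, 75 were tested, 13 of them higher and 41 lower in naive cells, against 26% and 27% of all genes tested. DACT2, a Dishevelled-binding regulator, rose by 4.73 on the log2 scale to 45.6 to 51.5 CPM, and the ligand WNT9A rose by 5.60. KREMEN1 (2.53) and KREMEN2 (3.18), receptors for Dickkopf proteins, and the R-spondin receptor LGR6 (2.44) were also higher. WIF1, a secreted ligand-binding inhibitor, had no count in naive libraries and 0.263 and 1.55 CPM in primed EOS and primed CA-p38. WNT7A, WNT8B and WIF1 are among the genes called and passed the filter only through the group in which they were high. Lower in naive cells were ROR1, a receptor for WNT5A (-7.32), and GPC4, a cell-surface proteoglycan (-5.84). The Groucho family includes co-repressors that act with TCF factors when beta-catenin is absent. Of its genes, TLE1 (-1.71), TLE4 (-1.40) and TLE5 (-1.59) were lower, and TLE3 (1.055) and TLE2 (0.89, adjusted p = 0.0412) were higher. TLE2 no longer passed with limma-voom or without VPA, CA-p38, primed EOS or primed CA-p38 (adjusted p from 0.0631 to 0.197). TNKS and TNKS2, the tankyrases that XAV939 inhibits, had log2 fold changes of -1.49 (adjusted p = 5.33e-07) and -0.99 (adjusted p = 1.25e-05).

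Spread among the naive libraries, made with 3 induction methods, was taken for the listed genes only, without a share over all genes. Over the 43 genes with at least 10 counts in every naive library, the highest level was 1.09 to 4.16 times the lowest, with a median of 1.44, and the ratio was under 1.5 for 23 of them. AXIN1 (1.09), DVL3 (1.10) and FZD5 (1.13) were among the most even. WLS (4.16, 95% counting interval 3.19 to 5.48) and WNT3A (3.70, 2.56 to 5.46) varied most, and both were the only ones of the 43 whose interval lay above a ratio of 2. WNT3A was lowest in VPA and highest in AICAR 1, and WLS lowest in AICAR 1 and highest in AICAR 2. TCF7L1 in VPA, at 7.05 CPM, was below the 13.1 to 14.2 CPM of the other naive libraries.

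Each naive library was also set against the primed library of its own parental line. All 4 log2 ratios were above 0 for 21 of the 51 genes and all below 0 for 22. They were of mixed sign for WNT4, WLS, DKK1, RNF43, RSPO3, DVL3, AXIN1 and GSK3A. The 22 include DKK4 and LGR5, which had 2 counts in primed EOS and none in the naive libraries of that line. The same count was not made over all genes. For CTNNB1 the ratios ran from -2.58 to -2.24, for FZD5 from 1.62 to 1.87 and for SFRP1 from -4.57 to -4.29. For WNT3 the ratio was 2.55 in the CA-p38 line and 3.39 to 3.59 in the EOS line, where line and inducing agent cannot be told apart. Because 0.5 CPM was added to each level, such ratios understate the differences of genes near or under that level, such as WNT3A, at 0.67 in the CA-p38 line and 1.21 to 2.58 in the EOS line.

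Whether the change from primed to naive differed between the lines was tested as an interaction of line and state. The naive cells of the CA-p38 line were induced with DOX and those of the EOS line with AICAR or VPA. Line and inducing agent therefore cannot be told apart in this test. With edgeR and adjustment over all genes, none of the 48 genes tested passed, beside 0.00377% of all genes tested. At an unadjusted p under 0.05 there were 5, namely WNT3, WNT3A, FZD7, NOTUM and TNIK, where 3.22% of all genes tested lay under it. Of these, WNT3A had 1 count and NOTUM 2 counts in primed EOS, and TNIK had 1 count in naive CA-p38. These counts lay under the floor of detection in a library that stood alone in its group. DESeq2 and limma-voom gave 0 genes of the list after adjustment. With 1 library for each state of the CA-p38 line and 1 for primed EOS, only the spread among the 3 naive EOS libraries entered this test. That spread mixes libraries induced with AICAR and with VPA. The test therefore does not show that the lines acted alike. The fitted difference for WNT3 was -1.04 on the log2 scale (95% interval -1.67 to -0.41, adjusted p = 0.9999).

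**Figure D5:**
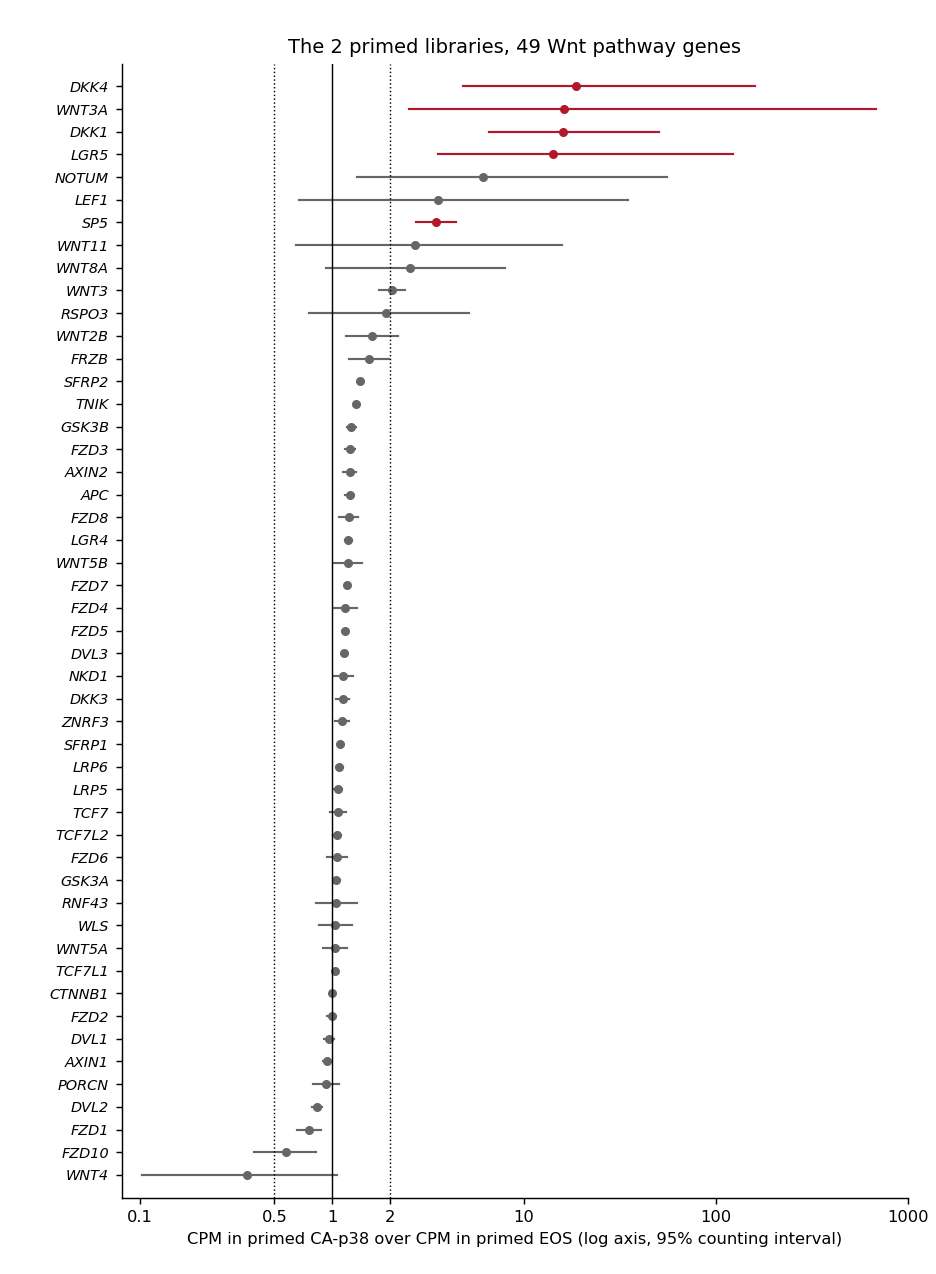
Ratio of the CPM in primed CA-p38 to that in primed EOS for the 49 genes with a count in both, on a log axis, with 95% counting intervals and dotted lines at 0.5 and 2. The 5 genes in red, DKK4, WNT3A, DKK1, LGR5 and SP5, have intervals above 2, and no interval lies below 0.5. The ratio was not taken over all genes.

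The 2 primed libraries differed in a few low-level genes. The ratio of primed CA-p38 to primed EOS was 18.7 for DKK4 (95% counting interval 4.83 to 160), 16.2 for WNT3A (2.52 to 679), 16.0 for DKK1 (6.57 to 50.6), 14.2 for LGR5 (3.57 to 123) and 3.47 for SP5 (2.74 to 4.43). These intervals cover counting error only, since each line had 1 library. The ratio was not taken over all genes, so these differences cannot be set against a background. WNT3 was 2.06 times as high in primed CA-p38 (1.76 to 2.41), whereas CTNNB1 (0.99), FZD2 (0.99), TCF7L1 (1.03) and WNT5A (1.03) were nearly equal. Of the markers of mesendoderm and endoderm, all but MESP1 were higher in primed CA-p38 as well. For MESP1 the ratio was 0.62 (0.293 to 1.25), the other way, and for GSC it was 2.56 (1.38 to 5.02). Summed over 5 mesendoderm markers the level was 4.04 and 14.6 CPM in primed EOS and primed CA-p38, with EOMES at 1.21 and 7.42 CPM, and over 4 endoderm markers it was 7.38 and 30.5 CPM, with FOXA2 at 5.36 and 21.4 CPM. All 5 mesendoderm and all 4 endoderm markers were above the floor in primed CA-p38, naive libraries had 8.19 to 11.0 CPM and 11.6 to 17.7 CPM on these sums, and the part of such cells in the difference was not tested. In bulk RNA, more cells of a type and more RNA per cell cannot be told apart.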

How the data were processed

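Bulk polyadenylated RNA was sequenced by the authors in 4 naive and 2 primed libraries (SMART-Seq Stranded kit). Per the study's methods, reads were trimmed with Trim Galore 0.4.4 and cutadapt 1.15, mapped with Bowtie2 in very-sensitive-local mode to Ensembl GRCh38 cDNA and noncoding RNA sequences, and kept at a mapping quality of at least 1. The methods and the processing notes also name GRCh38.p13 and RPKM from RSEM, and which route gave the deposited table was not settled. Whether counting used the strand is not given in the sources used here. The deposited values are whole-number counts per Ensembl gene identifier, without normalization. The table lists 61222 features, and its 26 spike-ins and 23 other columns were not used. The 51 genes matched 54 identifiers. Library totals were 46823699 to 54277064 counts.

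The test of state used edgeR 4.0.16 under R 4.3.3 (TMM scaling, filterByExpr by state, glmQLFit and glmQLFTest, no covariate), with Benjamini-Hochberg adjustment over 26497 gene names and a threshold of 0.05. Standard errors and 95% intervals came from the same fit. CPM values are TMM-scaled. Bounds used a floor of 3 counts per library, and counting intervals are exact Clopper-Pearson binomial intervals. Parental ratios were taken after adding 0.5 CPM to each level. Coordinates and lengths came from the GENCODE annotation of GRCh38, promoter sequences from RefSeq. An exact permutation test of 4 against 2 libraries could not go below p = 0.0667. Fits were also run on simulated data, with independent libraries and less spread between libraries than was fitted here. The outcome is not given and does not vouch for the tests on these data. The alternatives were DESeq2 1.42.0, limma-voom (limma 3.58.1), other scalings and filters, a block for the parental line, both AICAR libraries added together, 1 identifier per name, and each library left out in turn.

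The genes, roles and lists were chosen with earlier results of these data known. All 51 genes are named. Values in every library are given for the 3 called genes of each role with the largest change and a mean of at least 1 CPM, for the gene of each role with the highest mean, and for 11 targets, feedback genes and effectors. Genes named from the other lists, and the wider set of values given for uncalled or uneven genes, were chosen after their values were seen.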

Additional observations from a re-analysis of the deposited data

Results flagged for a closer look

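Among the 43 genes with at least 10 counts in every naive library, 4 had a naive library that stood apart from the other three, with a gap to its nearest neighbour, as a share of the range of the 4 libraries, above the 95% critical value of Dixon. Chance gives such a gap in about 1 of 20 groups. WNT8A had 0.344 CPM in VPA, below the other naive libraries, and FZD10 had 10.4 CPM in AICAR 2, above them. NOTUM had 2.47 CPM in AICAR 1, above the others, and TCF7L1 had 7.05 CPM in VPA, below them. Each of these genes still had all 4 naive libraries on 1 side of both primed ones, as had 64.9% of all genes tested.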

How the results depend on the processing

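Of 39 genes called, 36 were called in the same direction in every alternative that tested them, and of 708 values of tested genes 698 kept their direction and side of the threshold. The same count was not made over all genes. The 36 include WNT6, WNT10B, WNT11, TNIK and LEF1, which passed the filter only through the group in which they were high. Taking 1 identifier per name changed the counts of WNT3 and LRP6 alone within the list. WNT3A without primed EOS (2.16, adjusted p = 0.0525), and SP5 (-1.36, adjusted p = 0.0789) and NKD1 (-0.67, adjusted p = 0.0810) without primed CA-p38, no longer passed. WNT5B passed with library totals (adjusted p = 0.0279, of a range from 0.0279 to 0.316 over the alternatives), with at least 10 counts in every library and with the line as a block, and WNT8A passed without VPA (adjusted p = 0.0428, of a range from 0.0428 to 0.355). The sign changed for RNF43 with DESeq2's median-ratio scaling (-0.000423) and with DESeq2 (-0.000398), and for RSPO3 with limma-voom (-0.0124). Over all alternatives the adjusted p ran from 1.09e-05 to 0.0525 for WNT3A, from 1.73e-08 to 0.0789 for SP5 and from 5.96e-04 to 0.0810 for NKD1. The cause of these changes was not tested. The count of genes called higher ran from 14 to 20 and lower from 17 to 23. The smallest counts came from requiring at least 10 counts in every library, which left 36 genes to test. Without a filter, or without primed EOS, DKK1, DKK4 and LGR5 entered the test and were called lower in naive cells, on counts held mostly by primed CA-p38. Taking the union of exons as length moved the share of TCF7L1 in primed libraries to 77.7%, of WNT3 in naive libraries to 63.8% and of WNT5A in primed libraries to 26.7%. Naive and primed libraries share no replicate number in the labels but do share parental lines, and with the parental line as a block 20 genes were higher and 20 lower.

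With 2 primed libraries, 1 per line, genes near the floor in primed cells have wide intervals, and for 9 of the 51 genes the groups overlapped. Over all genes tested, the groups did not overlap for 64.9%. A gene with no count lay below 0.0553 to 0.0641 CPM by counting error alone.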
